A study of Mus musculus with 5 samples.

Results

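The kinases of the MAP kinase cascade were taken from the tables as every gene whose symbol is Mapk, Map2k, Map3k or Map4k followed by a number. Of 20365 gene names, 43 met this rule, with 5 in the Map4k tier, 18 in the Map3k tier, 7 in the Map2k tier and 13 in the Mapk tier. They held 96 of 40428 distinct intervals. For each gene, values come from the 1 interval whose mean CPM over the labeled libraries was highest.

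The libraries came from cardiac fibroblasts (CF) of adult healthy male C57Bl/6J wildtype mice, isolated by collagenase perfusion of the heart, depleted of CD31+ and CD45+ cells and grown to confluency. In the labeled group, 3 libraries were made from CF kept for 12 h with 0.1 mM of the uridine analog 4-thiouridine (S4U), and in the unlabeled group 2 libraries were made from CF kept for 12 h in parallel without it. Alkylated S4U is read as C in place of T, so the T>C conversion rate, the share of covered T positions read as C, is higher where more of the transcript is new. No animal was treated or infarcted, and the labels do not say whether libraries with the same replicate number came from the same preparation, so the p-values measure only the spread between these libraries.

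A MAP kinase cascade passes a signal from one kinase to the next by phosphorylation. Kinases of the Map4k tier act on those of the Map3k tier, these activate the dual-specificity kinases of the Map2k tier, and these in turn activate the MAP kinases, which phosphorylate transcription factors and other kinases. In fibroblasts the ERK, JNK and p38 branches of this cascade are known for relaying growth factors, cytokines, TGF-beta and mechanical stress to proliferation, migration and matrix genes.

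Reads of these libraries were counted at transcript 3′ ends. The intervals of 35 of the 43 kinases lay wholly in a UTR of their own gene in the GENCODE annotation of GRCm39, and those of 36 lay within 1 exon. A poly(A) signal, AATAAA or ATTAAA on the transcribed strand, was searched for in the last 60 bases of each interval. Such a signal often lies shortly before a transcript end, where reads are expected, but alone it does not show an end. It was found for 14 of the 17 kinases covered deeply enough for a precise rate, against 84.8% of 5554 genes with the same coverage. The signal of Map2k3 runs into a stretch of A in the genome, and whether reads there come from a transcript end was not tested. The signals of the best covered Map4k, Map3k and Map2k kinases, of Map2k3 and Mapk14, and of both Map3k20 intervals with reads are shown with 12 bases before and 12 after, the signal in capitals.
Map4k4, chr1:40065431-40065460, plus strand: tgtgacatttgtAATAAAtgtcttgtaata
Map3k7, chr4:32023434-32023463, plus strand: taatttatgtacAATAAActtcattcattt
Map2k1, chr9:64093055-64093084, minus strand: ctatcaagttaaAATAAAagggacaagaga
Map2k3, chr11:60843591-60843620, plus strand: attgctgttttaATTAAAaaaaaaaaaaaa
Mapk14, chr17:28967344-28967373, plus strand: accactggttaaAATAAAgcctagttttca
Map3k20, chr2:72237814-72237843, plus strand: actccattttgcAATAAAcgttttgacagt
Map3k20, second interval downstream, chr2:72272916-72272945, plus strand: tcatttttaggtAATAAAaaaaaagattat

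Mapk3 and Mapk9 were among the 3 deeply covered kinases with no signal in that window. Mapk3 had no AATAAA or ATTAAA anywhere in its interval, and the last signal of Mapk9 lay 381 bases before the end of its interval.

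AU-rich elements, known as sites of regulated mRNA decay, were searched for as ATTTA and as the longer TTATTTATT, which overlaps ATTTA, on the transcribed strand. ATTTA occurred in the intervals of 15 of the 17 deeply covered kinases, against 76.7% of the 5554 genes, and was missing from those of Map2k3 and Mapk3. The intervals of the 17 were longer, with a median of 2068 bases against 1420, and among intervals within 20% of the length of each kinase's own, ATTTA occurred in 59.2% for Mapk3 to 100% for Map3k2. TTATTTATT occurred in 2 of the 17, against 8.95% of the 5554 genes. In the intervals of like length, it occurred in 7.42% for Map4k5 and in 6.97% for Mapk6, which are the kinases that hold it.
Map4k5, chr12:69851537-69851565, minus strand: tatttaatccTTATTTATTaatctcttgc
Mapk6, chr9:75294630-75294658, minus strand: acatcacatcTTATTTATTtttagcaaat

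Between 506045 and 1576048 reads were counted on 1 interval per gene in the labeled libraries, and 996053 and 1842863 in the unlabeled ones. Labeled replicate 1 stood apart from the other labeled libraries. Per degree of freedom, the chi-square of its read counts was 18.2 against labeled replicate 2 and 12.2 against labeled replicate 3, while that between replicates 2 and 3 was 2.20. It was 17.7 between the unlabeled libraries. The levels of many kinases are therefore given for every library, and the rest as the mean and SD of the labeled libraries. All 10 fibroblast markers were read in every library, at a summed CPM of 39221 to 42840, relative to counted reads, in the labeled and 31908 and 35548 in the unlabeled libraries. The 6 cardiomyocyte markers summed to 1.27 to 7.03 in the 5 libraries, with Actn2 and Myl2 at 0, and the 5 endothelial markers to 113 to 221. The 5 macrophage markers summed to 35.8 to 73.6, the 5 mural markers to 306 to 571, and the 3 mesothelial markers to 0.543 to 5.93 with Msln at 0. The endothelial, macrophage, mural and cardiomyocyte sums were higher in both replicate 2 libraries than in both replicate 1 libraries, and their part in the results was not tested.

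Of the 43 kinases, 34 were read in every labeled library and 4, Map3k19, Mapk10, Mapk13 and Mapk15, had no read in any of the 5. Levels are given as CPM relative to counted reads, the reads of an interval over those counted on 1 interval per gene, without division by length because each transcript is read at its 3′ end. Of the 34, 18 lay above the median of 30.7 over the 11420 genes read in every labeled library. All 43 together took 0.189% of the counted reads. In bulk libraries, fewer cells of a type and less RNA per cell cannot be told apart.

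**Figure D1:**
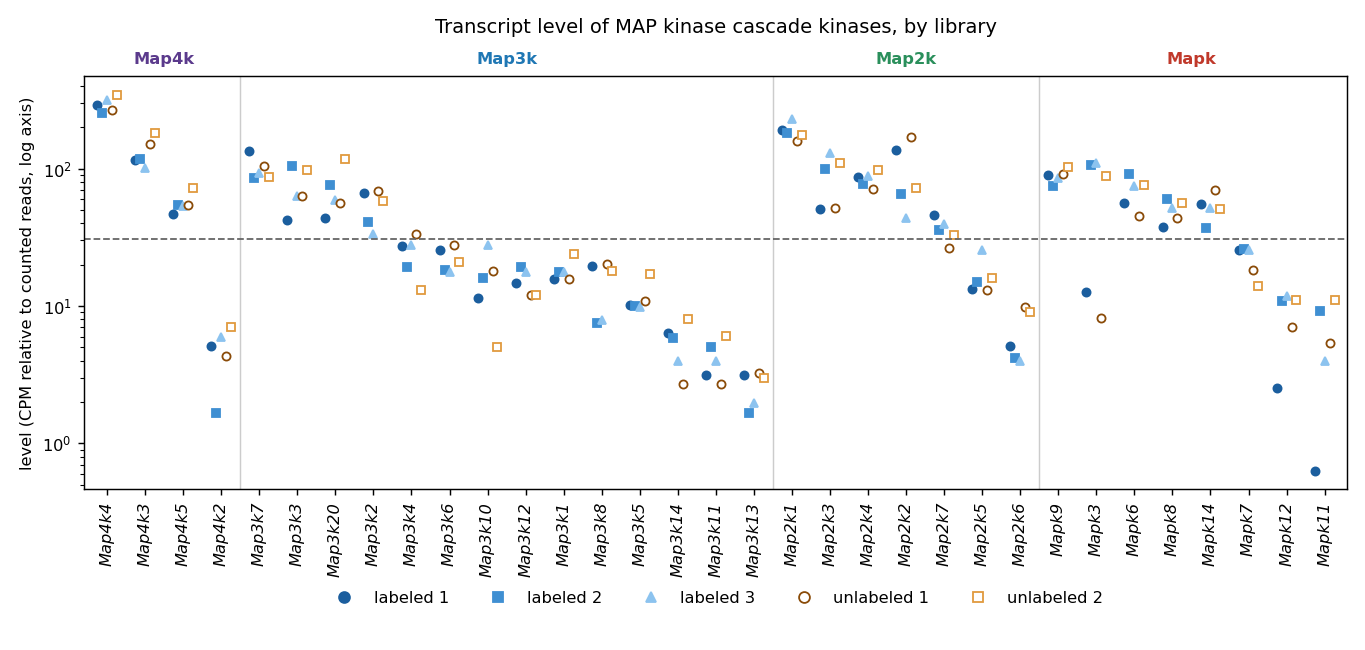
Level of kinases read in every labeled library (vertical log axis, CPM relative to counted reads), ordered by mean within each tier, with 1 point per library and a dashed line at the median of 11420 genes. Map4k4 was highest in all labeled libraries, most Map3k genes lay under the line, and Mapk3 was low in both replicate 1 libraries.

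The Map4k tier was carried by Map4k4, a Ste20-type kinase that acts upstream of JNK. Its level was 290, 253 and 318 in labeled replicates 1 to 3 and 268 and 342 in the unlabeled libraries. It was the highest of all 43 kinases in the labeled mean, at 287 ± 32.8 (SD, n = 3), above 94.7% of the genes read, and it made up 63.2% of its tier. Map4k3, a kinase linked to amino acid sensing, followed at 111 ± 9.01 and Map4k5 at 51.6 ± 4.03, and the labeled values of these 3 did not overlap. Map4k2 was low, at 4.23 ± 2.25, and Map4k1, known from blood cells, had 1 read in the labeled and 2 in the unlabeled libraries. The tier's levels summed to 454 ± 25.9.

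The Map3k tier was broad and low, with a median level of 13.3 ± 0.487 over its 18 genes and a sum of 413 ± 24.4. Only 4 of its 14 genes read in every labeled library lay above the median of all genes read, against 14 of the 20 in the other tiers. The highest was Map3k7 (TAK1), which relays TGF-beta and interleukin-1 signals, at 134, 85.4 and 92.9 in the labeled and 104 and 86.3 in the unlabeled libraries. Map3k3 followed at 42.5, 105 and 63.2 labeled and 63.5 and 97.4 unlabeled. Map3k20 (ZAK), a sensor of stalled ribosomes, was at 43.8, 76.2 and 59.3 labeled and 55.9 and 118 unlabeled. The range of Map3k3 overlapped with those of both others. Map3k7 lay above Map3k20 in all 3 labeled libraries and in unlabeled replicate 1, but not in unlabeled replicate 2. Map3k2, which like Map3k3 activates the ERK5 branch, was at 66.6, 41.0 and 33.6 labeled and 68.9 and 58.2 unlabeled.

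Of the remaining Map3k genes, 10 were read in every labeled library, at means from 2.27 for Map3k13 to 24.7 for Map3k4. They included the stress kinase Map3k5 (ASK1) at 10.0 ± 0.137 and Map3k14, the kinase of non-canonical NF-kappa-B signaling, at 5.39 ± 1.26. Map3k8 was at 19.7, 7.53 and 7.90 in the labeled and 20.1 and 18.1 in the unlabeled libraries, so labeled replicate 1 was the highest of the labeled. The 4 mixed lineage kinases Map3k9, Map3k10, Map3k11 and Map3k21 summed to 22.8 ± 8.04. Map3k9, Map3k15 and Map3k21 had 2 reads or fewer in any library. The intervals of Map3k10, Map3k12, Map3k14 and Map3k15 overlap Ttc9b, Pcbp2, Gm34823 and Pdha1 on the other strand. How strand entered counting is not given in the sources used here, so the reads of these kinases are uncertain.

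All 7 Map2k genes were read in every labeled library, and the tier had a median level of 53.2 ± 11.1 and a sum of 524 ± 41.3. The median of the Map4k tier, 51.6 ± 4.03, was not distinct from it, and was the higher of the 2 in labeled replicate 3. Map2k1 (MEK1), which activates the ERK kinases, was at 191, 182 and 229 in the labeled and 160 and 175 in the unlabeled libraries. Its labeled mean of 201 ± 25.2 was second to Map4k4 among all 43, and the values of these 2 did not overlap. Its relative Map2k2 (MEK2) was at 137, 65.3 and 43.5 labeled and 171 and 72.3 unlabeled. The ratio of Map2k1 to Map2k2 was 1.39, 2.78 and 5.27 in the labeled and 0.933 and 2.42 in the unlabeled libraries, so the order of the pair was the other way round in unlabeled replicate 1.

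Of the kinases that activate p38, Map2k3 was at 50.8, 99.6 and 130 labeled and 52.1 and 109 unlabeled, low in both replicate 1 libraries, and Map2k6 at 4.40 ± 0.593. Of those that activate JNK, Map2k4 was at 84.8 ± 6.05 and Map2k7 at 40.6 ± 5.25, and Map2k4 was higher in all 5 libraries, by 1.89 to 2.94 times. Map2k5, the activator of ERK5, was at 18.0 ± 6.69.

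In the Mapk tier, the median level of all 13 genes was 21.4 ± 7.58 and the sum 497 ± 45.5. Mapk9 (JNK2) was at 89.5, 74.5 and 85.0 labeled and 91.7 and 103 unlabeled, and it was above Mapk8 (JNK1), at 49.7 ± 11.5, in all 5 libraries. Mapk10 (JNK3), known from neurons and heart muscle, had no read. Of the p38 genes, Mapk14 (p38 alpha) was at 47.8 ± 9.70 and Mapk13 had no read. Mapk12 was at 2.54, 10.9 and 11.9 labeled and 7.05 and 11.04 unlabeled, and Mapk11 at 0.634, 9.21 and 3.95 labeled and 5.43 and 11.04 unlabeled. Both were lowest in labeled replicate 1, where Mapk11 had 1 read. Mapk6 (ERK3), an atypical MAP kinase, was at 74.3 ± 17.4 and Mapk7 (ERK5) at 25.7 ± 0.282, on an interval that overlaps Mfap4 on the other strand. Mapk4, the closest relative of Mapk6, had 1 read in the 5 libraries together.

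Summed levels are also given for 3 of the branches. The 5 kinases of the JNK branch summed to 258 ± 8.47, the 4 of the ERK5 branch to 161 ± 22.3 and the 6 of the p38 branch to 159 ± 43.7. The JNK branch held Mapk8, Mapk9, Mapk10, Map2k4 and Map2k7, and the p38 branch Mapk11, Mapk12, Mapk13, Mapk14, Map2k3 and Map2k6. Their labeled ranges, 249 to 265 and 114 to 202, did not overlap. The ERK5 branch held Map3k2 and Map3k3 beside Mapk7 and Map2k5, so its sum includes a tier that the others lack and was not compared with them.

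Read counts were next compared between labeled and unlabeled libraries, which asks whether the level of a kinase differed with S4U. Of 9807 genes tested with edgeR's quasi-likelihood test, 0 passed an adjusted p of 0.05 (0%), and none of the 30 kinases tested did. At an unadjusted p under 0.05, edgeR called 585 of all genes and 0 of the kinases. DESeq2 called 391 of 14283 genes (2.74%) at that threshold and 0 of the 39 kinases it tested. At an adjusted p under 0.05, DESeq2 called 10 genes higher, 4 lower and 0 of the kinases. The log2 fold changes of the 30 ran from -0.98 for Map2k6 to 0.74 for Mapk3, with a median of -0.06 against 0.02 for all genes, and 14 of the 30 were above 0. The SE of Mapk3 was 1.13 and that of Map4k4 0.26, so a change of Mapk3 could be detected with far less precision.

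The spread between libraries followed the replicate number in part of the kinases. Mapk3 (ERK1), a MAP kinase that growth factors activate, had 20 reads in labeled replicate 1 and 15 in unlabeled replicate 1, but 128 and 56 in labeled replicates 2 and 3 and 88 in unlabeled replicate 2. Its level was 12.7, 107 and 111 in the labeled and 8.14 and 88.3 in the unlabeled libraries. Both replicate 1 libraries were low, whether or not S4U had been added, and the other 3 were high, with no overlap.

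After these values were seen, replicate 2 was compared with replicate 1 in an edgeR fit with the S4U group as a term, which leaves 1 residual degree of freedom. Of 9807 genes, 22.0% were higher and 20.1% lower in replicate 2 at an adjusted p under 0.05. Of the 30 kinases, 8 were higher and 2 lower. Mapk3, whose values prompted the comparison, had the largest difference among the kinases, a log2 fold change of 3.29 with an SE of 0.26, given as a description, and ranked 32 among all genes. The other 7 higher in replicate 2 were Mapk11, Mapk12, Map2k3, Map3k20, Map3k3, Mapk6 and Mapk8, with log2 fold changes of 1.80, 1.26, 1.09, 1.02, 1.01, 0.79 and 0.59. That of Map3k20 was 0.74 with reads summed over its separate intervals. Map2k2 was lower in replicate 2 by a log2 fold change of -1.09 and Map3k4 by -0.83. None of the 3 Map4k genes tested was among the 10, a number too small to compare with the other tiers.

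**Figure D2:**
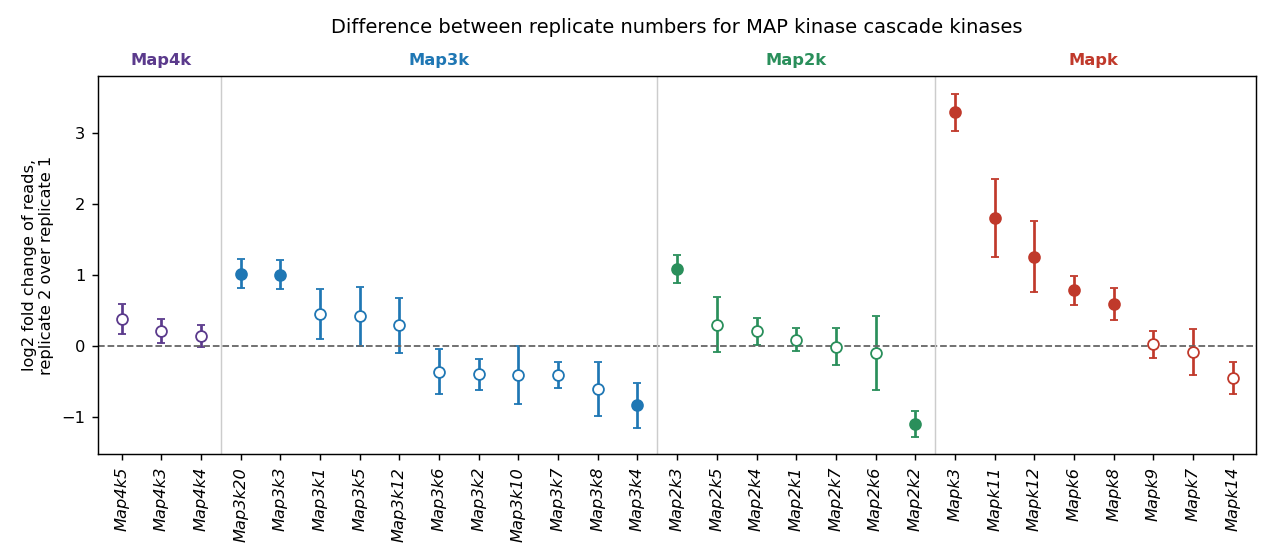
Log2 fold change of reads in replicate 2 over replicate 1 (vertical axis) for kinases tested, with the S4U group as a term, by tier; bars are the SE and filled points passed an adjusted p of 0.05. Mapk3 stood highest at 3.29 and Map2k2 lowest at -1.09.

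Across the 9805 of these genes with a sequence, this fold change correlated with the GC content of the interval at a Spearman rho of 0.37, a value across genes, which share the libraries and are not independent. Across the 30 kinases rho was 0.05. The Mapk3 interval is richer in GC than 96.1% of these genes. The part of base composition in the result was not tested.

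The T>C rate was first compared between labeled and unlabeled libraries, which asks whether new RNA of a kinase was detected. Of the 19240 intervals where all 5 libraries covered a T, 94.6% had a higher rate in the labeled libraries by a beta-binomial test at an unadjusted p under 0.05. That share counts every such interval of a gene, while each kinase entered with its best read interval only, so coverage may differ. Of the 34 kinases tested, 33 were called higher and 0 lower, close to that share. The one not called was Map3k10, a mixed lineage kinase, with a p of 0.0502, on 139, 175 and 109 covered T positions in the labeled and 273 and 46 in the unlabeled libraries. Its interval overlaps Ttc9b on the other strand.

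Rates were compared further for the 17 kinases where each labeled library covered 300 T positions or more, which were 3 Map4k, 4 Map3k, 4 Map2k and 6 Mapk genes. Their labeled rates ran from 0.0247 to 0.0590 and their unlabeled rates from 0 to 0.00413, so that in each of the 17 all labeled values lay above both unlabeled values. The median rate over the 5555 genes with this coverage was 0.0378, 0.0389 and 0.0388 in labeled replicates 1 to 3. The kinase with the lowest coverage that entered was Mapk3, with 324 T positions in labeled replicate 1, and those just short of it were Map3k4 with 276 and Map2k5 with 231 in the least covered labeled library.

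**Figure D3:**
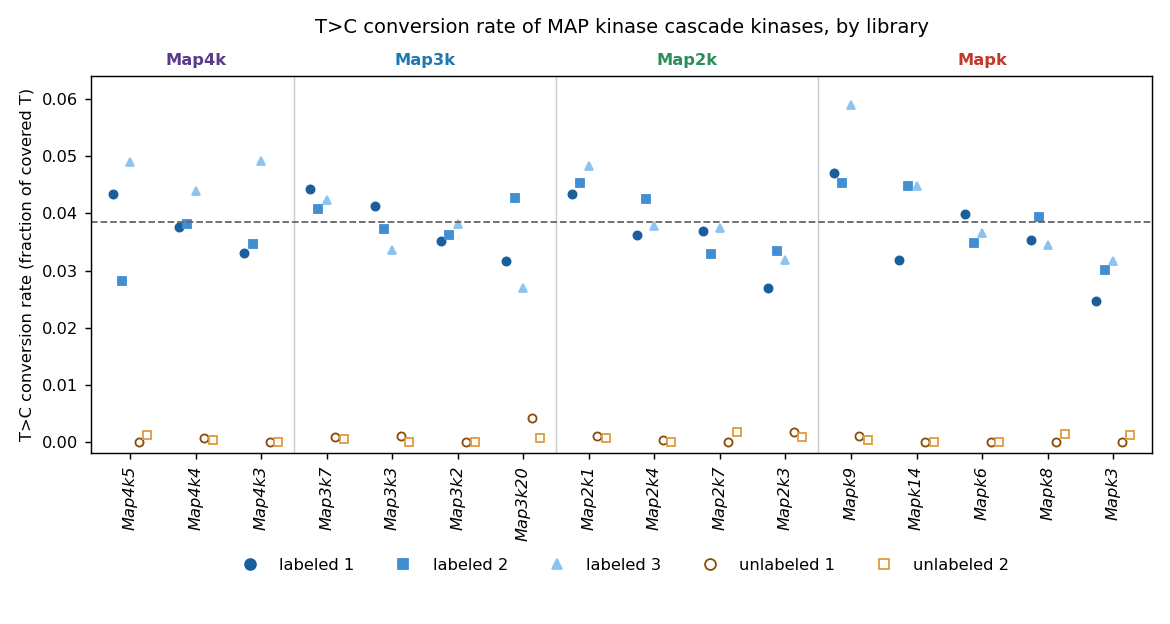
T>C conversion rate (vertical axis, fraction of covered T positions) of deeply covered kinases in the 3 labeled (filled) and 2 unlabeled (open) libraries, by tier, with a dashed line at the mean of the library medians, 0.0385. Every labeled point lay above every unlabeled point, and Mapk9, Map2k1 and Map3k7 were among those above the line in all 3 labeled libraries.

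The median rate was 0.0404 ± 0.00763 (SD, n = 3 libraries) for the Map4k, 0.0377 ± 0.00164 for the Map3k, 0.0374 ± 0.000772 for the Map2k and 0.0401 ± 0.00229 for the Mapk genes. The ranges of neighbouring tiers overlapped, with labeled values of 0.0375, 0.0347 and 0.0491 for Map4k and of 0.0376, 0.0421 and 0.0407 for Mapk. Within libraries the Mapk median was above that of Map2k, at 0.0365, 0.0380 and 0.0376, in all 3. The median over the 17 was 0.0388, and 10 of them lay between the quartiles of all 5555 genes, 0.0346 and 0.0423. Members of a tier are different genes, so no test was made between tiers.

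Rates were then set against the median log odds of the same library by limma, with Benjamini-Hochberg adjustment over 5555 genes. Of the 17 kinases, 2 had higher rates, Map2k1 among them, and 0 had lower rates. Over all genes 2.74% were above and 10.6% below the library median, and the counts of kinases, 2 and 0 of 17, are small. Each of the 2 calls was lost when any 1 of the 3 labeled libraries was left out. In these fits Map2k1 had log odds of 0.15 to 0.19 and limma adjusted p values of 0.0980 to 0.206. Of all genes, 1.25%, 0.449% and 2.43% were above the median without labeled replicates 1, 2 and 3 in turn. The call of Map2k1 was also lost with at least 100 covered T positions and with a pseudocount of 1, at adjusted p values of 0.0599 and 0.0555.

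Map2k1, measured at chr9:64093051-64093966, had labeled rates of 0.0434, 0.0453 and 0.0483, on 7529, 5691 and 3188 T positions, and unlabeled rates of 0.00108 and 0.000615. The difference in log odds was 0.17 with an SE of 0.05 and a limma adjusted p of 0.0469, and all 3 labeled values lay above the median. The interval overlaps Snapc5 on the other strand. Map2k2, at chr10:80959565-80960531, was not tested because it had only 226 covered T positions in labeled replicate 3. Its labeled rates were 0.0319, 0.0337 and 0.0310, under those of Map2k1 in all 3 libraries. Its unlabeled rates of 0.0107 and 0.0138, from 23 conversions in 2159 and 8 in 578 T positions, were above the library rates of 0.00111 and 0.000652 and above those of the 17 kinases. The labeled values still lay above both unlabeled values, and the cause of this background was not tested.

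Mapk9, at chr11:49773986-49777248, had the highest mean rate of the 17, with 0.0472, 0.0453 and 0.0590 in the labeled and 0.000989 and 0.000369 in the unlabeled libraries. It lay above 98.1% of all genes with this coverage, and its log odds exceeded the library median by 0.27 with an SE of 0.08, but the limma adjusted p was 0.0512. Its relative Mapk8 had 0.0353, 0.0395 and 0.0345 labeled, 0 and 0.00133 unlabeled, and was lower than Mapk9 in all 3 labeled libraries. With no conversion in 1882 T positions, the unlabeled replicate 1 value of Mapk8 allows a rate of up to 0.00159.

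Mapk3, at chr7:126364412-126364988, had the lowest mean rate of the 17. Its labeled rates were 0.0247, 0.0301 and 0.0316, on 324, 2527 and 1106 T positions, and its unlabeled rates 0 and 0.00115, where 0 of 236 allows up to 0.0127. The log odds lay 0.29 under the library median (-0.29, SE 0.09) with a limma adjusted p of 0.0636, which missed the threshold. The low level of Mapk3 in labeled replicate 1 leaves its rate there resting on 8 conversions.

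Map2k3 was next lowest, with labeled rates of 0.0270, 0.0334 and 0.0318 and a log odds of -0.24 (SE 0.08) against the median, with a limma adjusted p of 0.0884. Its unlabeled rates were 0.00178 and 0.000881. Map2k4 had 0.0362, 0.0426 and 0.0378 and was above Map2k3 in all 3 labeled libraries. Map2k7 had 0.0357 ± 0.00251 and did not keep 1 order with Map2k4. The intervals of Map2k4 and Map2k7 overlap Gm40026 and Gm63796 on the other strand, and that of Map2k7 also Gm49320 on its own strand.

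**Figure D4:**
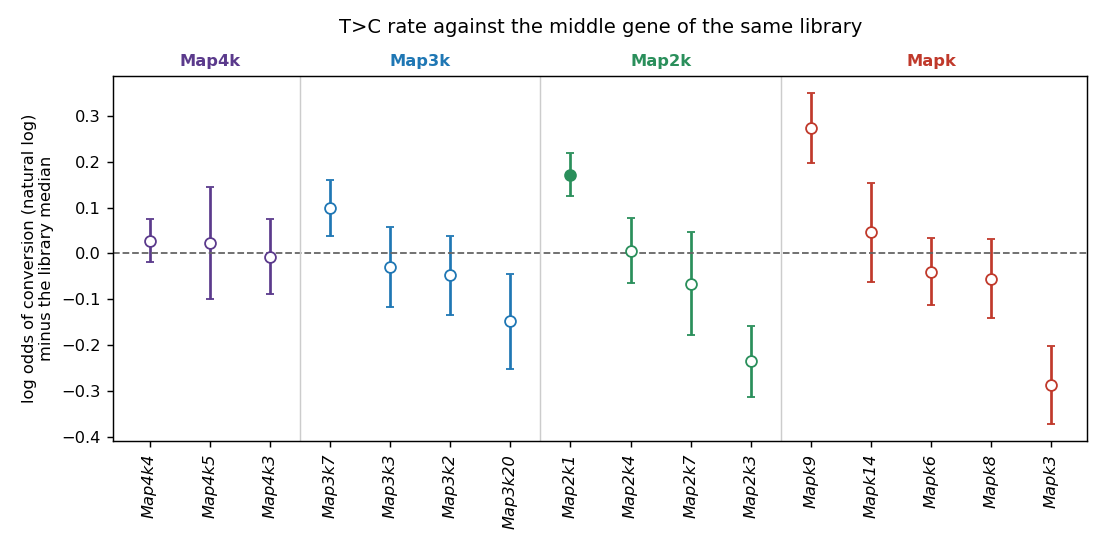
Log odds of T>C conversion minus the median of all 5555 genes in the same library (vertical axis, natural log) for deeply covered kinases by tier; points are limma estimates over 3 labeled libraries, bars the SE, and filled points passed an adjusted p of 0.05. Map2k1 at 0.17 passed, and Mapk3 at -0.29 was lowest.

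In the Map4k tier, Map4k4 was close to the middle gene, with labeled rates of 0.0375, 0.0381 and 0.0440 on 10230, 7983 and 4273 T positions, the deepest coverage of any kinase. Its unlabeled rates were 0.000596 and 0.000217. Map4k3 had 0.0331, 0.0347 and 0.0492 and Map4k5 0.0434, 0.0282 and 0.0491, ranges that overlapped with Map4k4. The Map4k5 interval overlaps 4930512B01Rik on the other strand. No conversion of Map4k3 was seen in 7399 and 5533 unlabeled T positions, which allows rates of up to 0.000405 and 0.000542.

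Of the 4 deeply covered Map3k genes, Map3k7 had the highest mean rate, with 0.0444, 0.0408 and 0.0423 labeled and 0.000823 and 0.000477 unlabeled, with a log odds of 0.10 (SE 0.06) against the median and a limma adjusted p of 0.355. Map3k20 had the lowest mean, with 0.0316, 0.0428 and 0.0269 labeled and 0.00413 and 0.000686 unlabeled, and an adjusted p of 0.431, though it lay above Map3k7 in labeled replicate 2. Map3k3, at 0.0374 ± 0.00383, and Map3k2, at 0.0365 ± 0.00155, lay between them. The second Map3k20 interval downstream, not used for these values, had labeled rates of 0.0382, 0.0388 and 0.0909 on 733, 258 and 88 T positions. Map3k20 was thus lowest on the interval used, and its rank over both intervals was not tested. The Map3k3 interval overlaps Limd2 on the other strand and Gm57402 on the same strand.

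Of the other Mapk genes, Mapk14 had labeled rates of 0.0319, 0.0448 and 0.0448, and no conversion in 2128 and 1007 unlabeled T positions, which allows up to 0.00141 and 0.00298. Mapk6, which holds the long AU-rich element printed above, had 0.0371 ± 0.00256, and Map4k5, the other kinase with one, 0.0402 ± 0.0108, and neither passed the test, with limma adjusted p values of 0.792 and 0.940.

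Over the 5554 genes with a sequence, the mean labeled rate correlated with the T content of the interval at a Spearman rho of 0.27 and with the number of ATTTA per kilobase at 0.22. Over the 17 kinases these values were 0.34 and 0.38, and rho between rate and level was 0.44, against -0.09 over 5555 genes. These are descriptions across genes of the same libraries.

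Other genes of the pathway were taken from a list of 31, made of 6 Raf kinases and Ras genes, 9 scaffolds and TAK1 partners, 11 downstream kinases and 5 Ste20 relatives. Of the 14 covered deeply enough, 0 were above and 0 below the library median at an adjusted p of 0.05 by limma. Over all genes these shares were 2.74% and 10.6%, so counts of 0 in 14 genes say little. Their median rate was 0.0394, from 0.0320 for Mknk2, a kinase downstream of ERK and p38, to 0.0477 for Lamtor3, a scaffold of MEK1. Of the 22 tested for reads, 0 changed with S4U by edgeR.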

How the data were processed

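The authors moved unique molecular identifiers into read headers and mapped 3′ end reads to mm39 with SLAM-DUNK (slamdunk 0.4.3 in the submitters' notes). They removed duplicates with umi-tools and deposited, per interval and library, counts of reads, of covered T positions and of conversions, not normalized. The deposited conversion rate is a fraction, and the deposited CPM divides reads by a number per library that is 7.58 to 28.9 times the reads counted on 1 interval per gene, so levels here divide by the counted reads. The deposited values were used in all 5 libraries.

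Rows that repeat an interval were dropped. For 40380 of 40380 intervals on reference chromosomes, the number of T bases matched GRCm39. Gene identifiers and overlapping genes came from GENCODE vM39, and coordinates count from 1. Sequences came from the genome. A kit that reads the sense strand was used, but how strand entered counting is not given in the sources used here. Kinases overlapped by a gene on the other strand (14 of 43) are therefore uncertain. These include Map4k2, Map2k6 and Mapk12, whose overlaps are not named above. No protein sequence was used.

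Rates were compared between groups with a beta-binomial likelihood-ratio test (two-sided, called at an unadjusted p of 0.05), and with the library median with limma 3.58.1 on log odds (pseudocount 0.5, at least 300 covered T positions in every labeled library). Reads were compared with edgeR 4.0.16 (quasi-likelihood, TMM, filterByExpr) and DESeq2 1.42.0, in R 4.3.3 and Python 3.11.15. Adjusted p values are Benjamini-Hochberg over all genes tested. The tests were tried on simulated data that held no difference between replicate numbers, so these trials do not give the error of the tests in these libraries. For a count of 0 conversions, the upper limit printed is 3 conversions over the T positions covered, and it reflects counting error alone.

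Every kinase could be named, with full values for those passing the test against the median, those highest and lowest in a tier, and Mapk3, Mapk8, Mapk9, Mapk14, Map2k1, Map2k2, Map3k7 and Map4k4. Results for 1 kinase are not reported here by name or drawn in the figures, though counts include it. The kinases, lists and tests were chosen with earlier results of these data known. Alternatives were other coverage minimums, another pseudocount and centre, the share of reads with a conversion, other tools, filters and intervals, the replicate block and each library left out.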

Additional observations from a re-analysis of the deposited data

How the results depend on the processing

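The count of kinases with a raised T>C rate, 33 of 34, was 25 of 25 with at least 100 covered T positions, 33 of 34 with adjusted p values or limma, and 30 to 34 of 34 without each library in turn, with 30 without labeled replicate 2 and without unlabeled replicate 1. The count above the library median, 2 of 17, was 1 of 26 with at least 100 covered T positions. With a pseudocount of 1 it was 1 of 17, and Map2k1 was lost both times. The count was 3 of 9 with at least 1000 and 3 of 17 with the pooled centre. With the share of reads with a conversion it was 6 of 17, among them Map2k1, Map3k7, Map4k3, Map4k4 and Mapk9. It was 0 of 17 without labeled replicate 1 or 2, and 0 of 22 without labeled replicate 3. Over all genes, 1.44% were above with at least 100, 2.48% with a pseudocount of 1 and 9.85% with at least 1000. The share was 13.6% with the pooled centre and 16.1% with the share of reads. Without labeled replicates 1, 2 and 3 in turn, 1.25%, 0.449% and 2.43% of all genes were above. The share of reads counts a read with a conversion once, whatever number of T positions it covers, so it is not a like measure to the rate. With the share of reads, Map4k3 moved from -0.01 to 0.36 in log odds and Map2k1 from 0.17 to 0.73. Mapk9 moved from 0.27 to 0.63, while Map2k7 fell from -0.07 to -0.43. The count below was 1 of 9, Map2k3, with at least 1000 covered T positions, against 21.0% of all genes. Mapk9 passed with at least 1000 covered T positions, the pooled centre and the share of reads with a conversion, at adjusted p values of 0.0243, 0.0118 and 0.00147, and its adjusted p ran from 0.00147 to 0.133 over its alternatives. With at least 100 and 1000 covered T positions the median rate was 0.0371 and 0.0482 for Mapk, 0.0341 and 0.0388 for Map2k, and 0.0348 and 0.0425 for Map3k. With conversions pooled over the tier, that of Map2k was 0.0410. Without each labeled library it ran from 0.0374 to 0.0414 for Mapk and from 0.0350 to 0.0378 for Map2k. As deposited CPM, the median levels were 1.59 for Mapk, 4.58 for Map2k, 1.10 for Map3k and 4.22 for Map4k, and over the deeply covered kinases alone they were 72.9, 89.2, 65.7 and 111 CPM relative to counted reads. The cause of these moves was not tested, apart from the different set of genes that a coverage minimum leaves and the larger divisor of the deposited CPM.

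With the replicate number as a block, 32 of 34 kinases had a raised rate by limma on the log odds, against 94.6% of all intervals, and 0 of 30 had changed reads by edgeR, against 5.38% of all genes higher and 6.29% lower. At an unadjusted p under 0.05 these were 4 of 30 and 23.8%. With labeled replicate 1 left out and no block, edgeR called 2 of 29 kinases at an unadjusted p under 0.05, against 10.35% of all genes. The labels do not tie a replicate number to 1 preparation. With 2 unlabeled libraries, their deviations from the group mean mirror each other, so whether the numbers pair the samples could not be checked over separate pairs. With reads summed over separate intervals, 11 kinases in place of 10 differed between replicate numbers. Depth limits most Map3k genes, whose rates rest on few T positions.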
